A study of Mus musculus with 12 samples.

Results

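The 7 genes described here encode the kidney's aldosterone-regulated sodium absorption machinery: the α, β and γ subunits of the epithelial sodium channel ENaC (Scnn1a, Scnn1b and Scnn1g), the mineralocorticoid receptor (Nr3c2), the steroid-inactivating enzyme 11β-hydroxysteroid dehydrogenase type 2 (Hsd11b2), the kinase SGK1 (Sgk1) and tissue kallikrein (Klk1). They were taken by gene symbol, with earlier results of these data known, and were 7 of 45777 genes in the deposited mouse table. All 7 passed the filter on low counts, as did 18730 genes in all. Whole-kidney RNA was sequenced in 12 libraries, 3 in each of 4 groups of male wild-type C57BL/6 mice. The normal group received neither cisplatin nor vesicles. The PBS, EV200 and EV400 groups were injected intraperitoneally with cisplatin, a DNA-crosslinking drug toxic to renal tubules, at 9 mg/kg in 5 weekly cycles. Every 3 days these 3 groups were then injected intravenously, 5 times in all, with phosphate-buffered saline in the PBS group, 200 µg of vesicles in EV200 and 400 µg in EV400. The vesicles are extracellular ones of a source named only iMSC in the labels. Their kidneys were collected 3 days after the last injection. Normal mice are listed with 0 intravenous injections, so cisplatin and the injections cannot be told apart in any comparison with normal. The labels do not say that each replicate was a separate mouse, so p-values measure only the spread between these samples.

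ENaC is the apical channel through which sodium enters the principal cells of the connecting tubule and collecting duct, and it is usually assembled from an α, a β and a γ subunit. Aldosterone binds the mineralocorticoid receptor in these cells, and the receptor then raises transcription of Sgk1 and Scnn1a. SGK1 phosphorylates the ubiquitin ligase NEDD4-2, which slows removal of the channel from the membrane. HSD11B2 inactivates corticosterone, which binds the same receptor, and serine proteases cleave the α and γ subunits and open the channel.

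The libraries held 46.6 to 62.1 M counts. Libraries PBS 2, EV200 3 and EV400 3 lay farthest from the others of their groups on the first 2 principal components of all genes. The summed level of 8 macrophage markers was 126 to 145 CPM (each library's counts scaled to its size with TMM factors) in normal, 299 to 575 in PBS, 176 to 521 in EV200 and 120 to 252 in EV400, with the highest values in PBS 2 and EV200 3. The summed level of 8 proximal tubule markers was 39200 to 42200 CPM in normal, 25100 to 32300 in PBS, 27700 to 35500 in EV200 and 34800 to 42600 in EV400. For 9 markers of principal cells, in which ENaC acts, the sums were 204 to 234, 165 to 323, 241 to 280 and 191 to 252 CPM in the same order. Every marker was detected in every group, but some single libraries had 1 marker at 0. In PBS against normal, 2 of the 8 markers that passed the filter had a Benjamini-Hochberg adjusted p under 0.05 in edgeR, where 2.74% of all genes did. Of these, 1 was higher and 1 lower. The 7 distal convoluted and connecting tubule markers summed to 928 to 1060, 851 to 1330, 777 to 1380 and 993 to 1260 CPM. In whole tissue, fewer cells of a type and less RNA per cell cannot be told apart, and the part of these marker levels in the results below was not tested.

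None of the 7 genes was called in any comparison, a call being a Benjamini-Hochberg adjusted p under 0.05 over all genes tested with edgeR's quasi-likelihood test. The share of all genes called was 2.74% for PBS against normal, 0.016% for EV200 against PBS, 0.0801% for EV400 against PBS, 0.00534% for EV400 against EV200, 0.0694% for EV200 against normal and 0% for EV400 against normal. A joint test for any difference among the 4 groups called 0.0641% of all genes and 0 of the 7. No unadjusted p of the 7 genes was under 0.05 in the 42 pairwise tests, the smallest being 0.0608 for Nr3c2 in PBS against normal. DESeq2 also called 0 of the 7, where it called 15.2% of all genes in PBS against normal. Among the pairwise comparisons, limma-voom with quality weights called Scnn1g alone. It did so in PBS against normal, where it called 32.9% of all genes, and in EV400 against normal, where it called 1481 of 18730. The count of 0 does not show that the levels were the same, so the intervals are given. Each of the 42 95% intervals lay within a 2-fold change in either direction. The lowest bound was a log2 fold change of -0.73 for Klk1 in PBS against normal, and the highest was 0.74 for Klk1 in EV400 against PBS. Without Klk1, the bounds ran from -0.54 to 0.61.

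**Figure D1:**
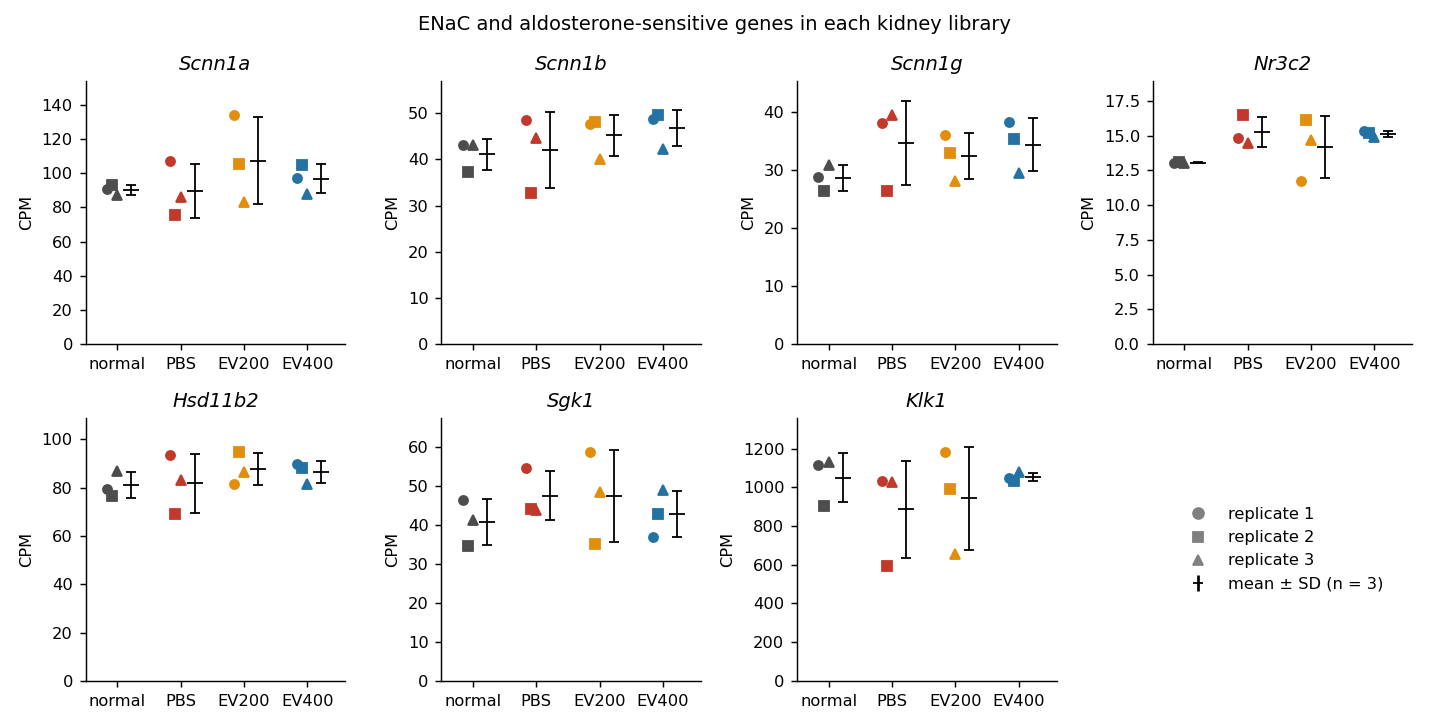
Each panel plots 1 gene in CPM on the vertical axis, with the 4 groups on the horizontal axis, 1 point per library and the mean ± SD (n = 3) as a black bar. The groups overlap in all panels except for Nr3c2, where the 3 PBS and the 3 EV400 libraries lie above the 3 normal ones.

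The authors' TPM values, which are per transcript length, order the 7 genes by abundance. Klk1 averaged 1809 TPM over the 12 libraries and ranked 35 among all 45777 genes, and its lowest library (1262 TPM) lay far above every other member. Hsd11b2 followed at 80.9 TPM (63.9 to 94.5), then Scnn1a at 48.2 TPM (36.2 to 68.1), Sgk1 at 32.0 TPM (23.1 to 42.3), Scnn1b at 28.7 TPM (22.7 to 33.6) and Scnn1g at 19.3 TPM (14.3 to 25.1). Nr3c2 was lowest at 4.59 TPM (3.82 to 5.95), rank 10367 of the same 45777. The ranges over all libraries of each neighbouring pair from Hsd11b2 to Scnn1g overlapped, and only Klk1 and Nr3c2 stood clear of the rest. Within every single library, however, Hsd11b2 lay above Scnn1a, Scnn1a above Sgk1 and Scnn1b, and both of these above Scnn1g. Only Sgk1 and Scnn1b changed places between libraries. The spread within groups, as an SD of log2 CPM, ran from 0.13 for Nr3c2 and 0.14 for Hsd11b2 to 0.33 for Klk1, against a median of 0.2 over all genes.

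Scnn1a (chromosome 6, 125314271 to 125344943, plus strand, GRCm38) encodes the α subunit, which the channel needs to conduct and which aldosterone raises in the collecting duct. Its level was 90.9, 92.9 and 87.0 CPM in the normal libraries and 107, 75.6 and 86.2 CPM in the PBS libraries. It was 134, 105 and 83.2 CPM in EV200, and 97.3, 105 and 88.0 CPM in EV400. The highest library was EV200 1 and the lowest PBS 2, and the normal libraries overlapped with those of each other group. The log2 fold change of PBS against normal was -0.01 (SE 0.16, 95% interval -0.36 to 0.34, adjusted p = 0.969 in edgeR with Benjamini-Hochberg adjustment). For EV200 against PBS it was 0.26 (SE 0.16, interval -0.09 to 0.61, adjusted p = 0.657), and for EV400 against PBS 0.11 (SE 0.16, interval -0.24 to 0.46, adjusted p = 0.677).

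Scnn1b encodes the β subunit and Scnn1g the γ subunit. Both lie on the plus strand of chromosome 7, Scnn1g at 121734420 to 121768482 and Scnn1b at 121865038 to 121918728, with 96.6 kb between them. Scnn1b stood at 43.1, 37.3 and 43.1 CPM in normal, 48.6, 32.8 and 44.6 CPM in PBS, 47.6, 48.0 and 40 CPM in EV200, and 48.7, 49.5 and 42.4 CPM in EV400. PBS 2 was the lowest library, and all groups overlapped. Its log2 fold change was 0.03 for PBS against normal (SE 0.14, interval -0.27 to 0.32, adjusted p = 0.91), 0.11 for EV200 against PBS (interval -0.19 to 0.40, adjusted p = 0.783) and 0.16 for EV400 against PBS (interval -0.14 to 0.45, adjusted p = 0.466), by edgeR.

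The γ subunit is the main target of channel-opening proteases. Scnn1g was at 28.7, 26.3 and 30.8 CPM in normal and at 38.1, 26.3 and 39.4 CPM in PBS. It was at 36.0, 33.0 and 28.1 CPM in EV200, and at 38.3, 35.3 and 29.4 CPM in EV400. PBS 1 and PBS 3 lay above all normal libraries, and PBS 2 lay level with the lowest of them. The log2 fold change of PBS against normal was 0.27 (SE 0.15, interval -0.06 to 0.61, adjusted p = 0.248 in edgeR), the largest point estimate of the 7 genes in the 6 comparisons. Scnn1g was 0.26 above normal in EV400 (SE 0.15, interval -0.07 to 0.60, adjusted p = 0.756) and 0.18 in EV200 (interval -0.16 to 0.51, adjusted p = 0.667). Against PBS the differences were -0.10 for EV200 (interval -0.43 to 0.24, adjusted p = 0.829) and -0.01 for EV400 (interval -0.34 to 0.32, adjusted p = 0.971).

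For Scnn1g the outcome turned on a few libraries. Leaving out 1 library moved its log2 fold change for PBS against normal between 0.17 without PBS 3 (adjusted p = 0.533 in edgeR) and 0.45 without PBS 2 (adjusted p = 0.156), and it was 0.20 without PBS 1 (adjusted p = 0.436). Without PBS 2, EV200 3 and EV400 3 together, it was 0.44 (SE 0.08, adjusted p = 0.00627 in edgeR) for PBS and 0.36 (SE 0.08, adjusted p = 0.0435) for EV400 against normal. This omission was chosen after seeing the data. Of all genes, 2608 were then called for PBS against normal in place of 514, and 490 for EV400 against normal in place of 0. Limma-voom, which gave PBS 2, EV200 3 and EV400 3 quality weights of 0.163, 0.283 and 0.344, called Scnn1g in the same comparisons, at 0.43 (adjusted p = 0.00326) and 0.37 (adjusted p = 0.0283). It called 6164 genes for PBS against normal and 1481 for EV400 against normal.

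**Figure D2:**
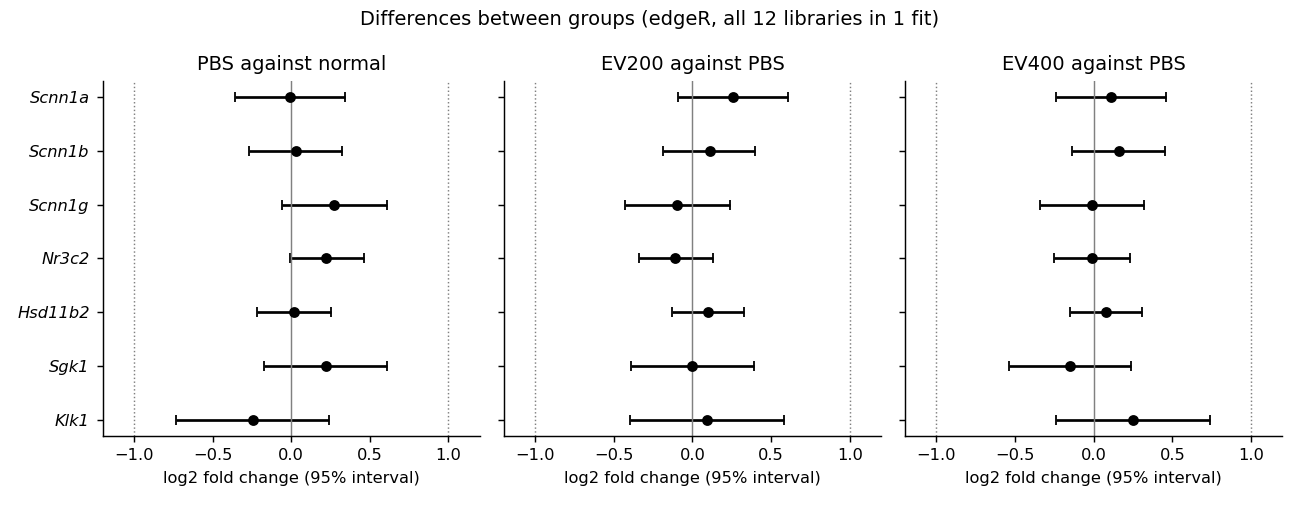
Points are log2 fold changes of the 7 genes for PBS against normal, EV200 against PBS and EV400 against PBS, with 95% intervals as bars, and dotted lines mark 2-fold changes. All 21 intervals include 0 and none reaches a dotted line.

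Within each library, the ratio of the authors' TPM values sets the subunits against each other and needs no scaling between libraries. Scnn1g held 17.8 to 24.4% of the summed TPM of the 3 subunits, Scnn1b 26.0 to 31.3% and Scnn1a 45.1 to 56.2%. The Scnn1g to Scnn1b ratio was 0.606, 0.637 and 0.648 in normal, 0.711, 0.727 and 0.798 in PBS, 0.684, 0.624 and 0.636 in EV200, and 0.709, 0.642 and 0.629 in EV400. All 3 PBS libraries, PBS 2 included, lay above all 9 libraries of the other groups, although EV400 1 came close to PBS 1. How often ratios of other gene pairs separate the groups in this way was not computed. Of single genes, 20.3% of all tested lay above normal in every PBS library. The mean ratio was 0.745 ± 0.0461 in PBS against 0.630 ± 0.0215 in normal, 0.648 ± 0.0320 in EV200 and 0.660 ± 0.0431 in EV400 (SD, n = 3). On the log2 scale PBS exceeded normal by 0.24, and EV200 and EV400 differed from PBS by -0.20 and -0.17. Each of these comparisons gave p = 0.1 in a two-sided exact permutation test, the smallest that 3 against 3 libraries allow, and 0.45 after Benjamini-Hochberg adjustment over the 18 ratio comparisons. None of them therefore passed a threshold of 0.05, which this design cannot reach. The difference of PBS from normal ran from 0.19 to 0.27 when each library was left out in turn. The Scnn1g to Scnn1a ratio averaged 0.458 ± 0.0709 in PBS and 0.377 ± 0.0417 in normal, with overlapping libraries (exact p = 0.2). In EV200 it averaged 0.362 ± 0.0412, and all 3 EV200 libraries lay below all PBS ones, a log2 difference of -0.33 (exact p = 0.1, 0.45 after adjustment), the widest of the 18 ratio comparisons. It averaged 0.418 ± 0.0393 in EV400, a log2 difference from PBS of -0.13 (exact p = 0.5). The Scnn1b to Scnn1a ratio averaged between 0.561 and 0.632 in the 4 groups, and no exact p was under 0.2.

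**Figure D3:**
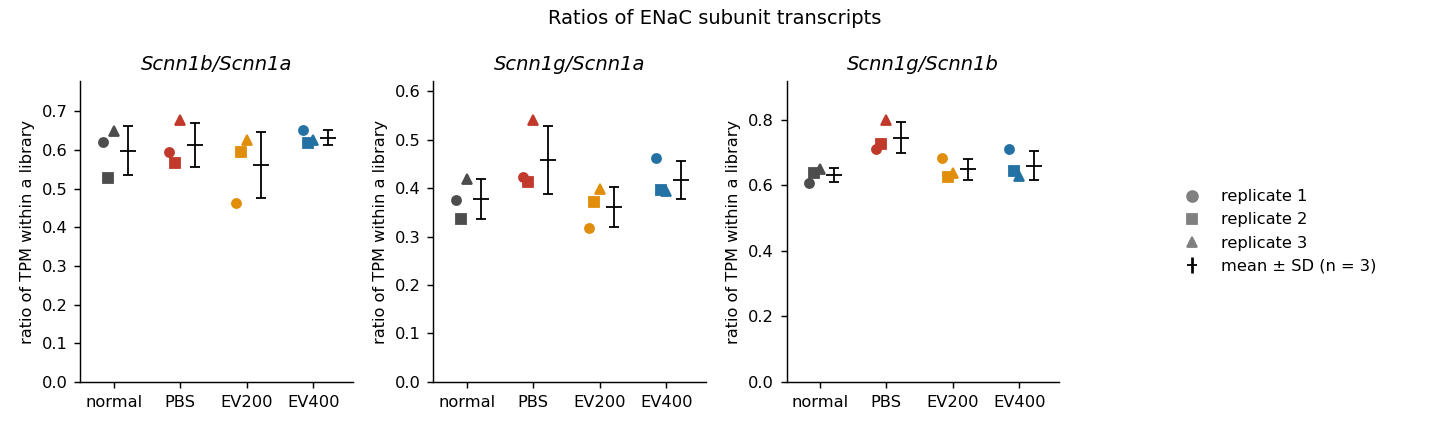
Ratios of the authors' TPM values of the ENaC subunit genes are plotted on the vertical axes for each library, by group, with the mean ± SD (n = 3) as a black bar. In the Scnn1g to Scnn1b panel the PBS libraries, at 0.711 to 0.798, lie above the other 9, at 0.606 to 0.709. How often ratios of other gene pairs separate in this way was not computed.

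Nr3c2 (chromosome 8, 76898083 to 77245012, plus strand) encodes the mineralocorticoid receptor. It was the steadiest of the 7 genes in the normal group, at 13.03, 13.08 and 13 CPM. It stood at 14.8, 16.4 and 14.4 CPM in PBS, 11.7, 16.1 and 14.7 CPM in EV200, and 15.3, 15.2 and 14.9 CPM in EV400. The 3 PBS and the 3 EV400 libraries lay above all normal ones, while EV200 1 lay below them. Of all genes tested, 20.3% were likewise above normal in every PBS library, and 8.28% in every EV400 library. The log2 fold change was 0.22 for PBS (SE 0.11, interval -0.01 to 0.46, adjusted p = 0.186 in edgeR), 0.12 for EV200 (interval -0.12 to 0.36, adjusted p = 0.684) and 0.21 for EV400 (SE 0.11, interval -0.02 to 0.45, adjusted p = 0.745), each against normal. EV200 and EV400 differed from PBS by -0.11 (interval -0.34 to 0.13) and -0.01 (interval -0.25 to 0.23). Exons of Nr3c2 overlap those of Gm10649 on the opposite strand. The library kit marks strand, but the strand setting of the counting is not given in the sources used here, so reads of both genes may be mixed.

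Hsd11b2 (chromosome 8, 105518746 to 105523988, plus strand) keeps corticosterone off the receptor in the same cells. Its level was 79.7, 76.4 and 86.9 CPM in normal, 93.5, 69.0 and 83.1 CPM in PBS, 81.6, 94.8 and 86.5 CPM in EV200, and 89.9, 88.1 and 81.5 CPM in EV400. PBS 2 was again the lowest library, and the groups overlapped. The log2 fold change was 0.02 for PBS against normal (SE 0.11, interval -0.22 to 0.25, adjusted p = 0.94 in edgeR), 0.10 for EV200 against PBS (interval -0.13 to 0.33) and 0.08 for EV400 against PBS (interval -0.15 to 0.31). In fold terms the interval for PBS against normal ran from 0.86 to 1.19.

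Sgk1 (chromosome 10, 21882184 to 21999903, plus strand) is an early target of both the mineralocorticoid and the glucocorticoid receptor and has several alternative transcript starts. One of them is shown because it carries the only full steroid response element found in the sequences searched, which cover 5 of the 7 members. RefSeq (GRCm38.p6) gave 10 windows of 250 bases upstream of transcript starts for 5 of the 7 genes, 6 of them for Sgk1. No window was found for Scnn1a or Hsd11b2, so these genes were not searched. Windows were searched for the palindrome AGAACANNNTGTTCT, and for its half-site AGAACA on both strands. They were also searched for the E-box CACGTG, to which clock and other helix-loop-helix factors bind. The full element was found in 1 of the 10 windows, the fifth of Sgk1, which ends just before the start at 21993890. The 15 bases of the element lie at 21993701 to 21993715, 175 bases before that start. The same window holds 1 E-box that overlaps 1 further half-site. Over all 32851 RefSeq windows, 3 (0.00913%) hold the full element, 16.1% a half-site and 6.02% the E-box. These matches describe the letters of the window and not binding. In the sequence, capitals mark the E-box with its overlapping half-site and then the full element.
Sgk1 window, chr10:21993640-21993889, plus strand: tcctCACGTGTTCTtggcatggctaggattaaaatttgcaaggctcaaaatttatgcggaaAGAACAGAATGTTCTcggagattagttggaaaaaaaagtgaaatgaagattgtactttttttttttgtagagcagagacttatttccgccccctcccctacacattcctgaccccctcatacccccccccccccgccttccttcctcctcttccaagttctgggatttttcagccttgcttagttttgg

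The gene downstream of these letters gave 46.3, 34.6 and 41.3 CPM in normal, 54.6, 43.9 and 43.6 CPM in PBS, 58.6, 35.0 and 48.3 CPM in EV200, and 36.8, 42.7 and 48.8 CPM in EV400. The counts were summed over all Sgk1 transcripts and do not show which start was used. The libraries of a group differed by up to the range of EV200, 35.0 to 58.6 CPM, and all groups overlapped. Sgk1 differed from normal by a log2 fold change of 0.22 in PBS (SE 0.18, interval -0.17 to 0.61, adjusted p = 0.431 in edgeR), by 0.22 in EV200 (interval -0.17 to 0.61) and by 0.07 in EV400 (interval -0.32 to 0.46). The difference from PBS was 0.00 for EV200 (interval -0.39 to 0.39, adjusted p = 0.998) and -0.15 for EV400 (interval -0.54 to 0.24, adjusted p = 0.615).

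Klk1 (chromosome 7, 44225360 to 44229622, plus strand) encodes tissue kallikrein, a serine protease of the connecting tubule that releases kinins and has been linked in mice to cleavage of the γ subunit. It was at 1113, 902 and 1133 CPM in normal and at 1035, 596 and 1026 CPM in PBS. It was at 1182, 989 and 656 CPM in EV200, and at 1050, 1032 and 1077 CPM in EV400. PBS 2 and EV200 3 were the lowest libraries. They had the highest summed macrophage markers and also the lowest summed distal convoluted and connecting tubule markers, at 851 and 777 CPM. The part of either marker set was not tested. The EV400 libraries lay closest together. The log2 fold change was -0.24 for PBS against normal (SE 0.22, interval -0.73 to 0.24, adjusted p = 0.483 in edgeR). EV200 differed from PBS by 0.09 (interval -0.40 to 0.58) and EV400 by 0.25 (SE 0.22, interval -0.24 to 0.74, adjusted p = 0.491). Leaving out 1 library moved the PBS against normal value from -0.37 (without PBS 1 or PBS 3) to -0.02 (without PBS 2) and the EV400 against PBS value from 0.38 (without PBS 1) to 0.03 (without PBS 2). Without PBS 2, EV200 3 and EV400 3, Klk1 in EV400 differed from normal by -0.01. The 13 Klk1b paralogs searched summed to 4.31 to 4.91% of the Klk1 level in each library. Klk1b5 and Klk1b21 stood at 1.73 to 2.59% and 1.75 to 2.16% of its TPM. How reads shared by these near-identical genes were assigned is not given in the sources used here, so the paralogs' values are uncertain.

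Of 21 pairs of members, 2 had a correlation of log2 CPM with a Benjamini-Hochberg adjusted permutation p under 0.05. For Scnn1b and Scnn1g, Pearson's r was 0.84 (permutation p = 0.00037, adjusted 0.00777) and Spearman's rho 0.81 (permutation p = 0.00225), with r = 0.78 without PBS 2 and Normal 2 and r = 0.93 for deviations from the group means. For Scnn1b and Hsd11b2, r was 0.84 (permutation p = 0.00089, adjusted 0.00934) and rho 0.78 (permutation p = 0.00461). Their r was 0.53 without the same libraries and 0.82 for deviations from the group means. In both pairs the libraries left out were those with Scnn1b farthest from its median. Leaving them out narrows the range, so a fall in r does not show that a relation rests on them. For Scnn1a and Scnn1b, r was 0.72 and rho 0.72, with an adjusted permutation p of 0.0556 for r. For Scnn1a and Scnn1g, r was 0.56 and rho 0.45, with an adjusted permutation p of 0.137 for r. An adjusted permutation p of 0.0556 for r was also found for Scnn1b and Klk1 (r = 0.75, rho 0.38). Scnn1a, Nr3c2, Sgk1 and Klk1 correlated with no other member at an adjusted permutation p under 0.05. The libraries of a pair share depth and tissue composition, which this measure does not separate.

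Across 10693 genes of at least 5 CPM, genes among the 3 whose log2 CPM was most like each member's are given by Pearson's r over the 12 libraries. Those of Scnn1b included Atp6v1b1, a proton pump subunit (r = 0.906), and Scn4b, a sodium channel β subunit (r = 0.902). Scnn1g was closest to Trpv5, the apical calcium channel of the connecting tubule (r = 0.884), then Scn4b (r = 0.866) and Cotl1 (r = 0.841). Scnn1a was closest to Egf, which encodes epidermal growth factor (r = 0.933), then Raly (r = 0.93) and Usf2 (r = 0.928). Hsd11b2 was closest to Atp6v1b1 (r = 0.893), Trpt1 (r = 0.826) and the potassium channel gene Kcnq1 (r = 0.819). Nr3c2 was closest to Acer3 (r = 0.894), Vamp4 (r = 0.844) and Sdcbp (r = 0.816), and Sgk1 to Snrpf (r = 0.805), Zfp12 (r = 0.776) and Prkar1a (r = 0.769), the lowest values of the set. Klk1 was closest to its paralogs Klk1b21 (r = 0.966) and Klk1b5 (r = 0.963), then Atad3a (r = 0.95). How reads shared by Klk1 and its paralogs were assigned is not given, so the paralogs' r values are uncertain. All r values here are descriptions over 12 libraries, with the genes picked for the highest r.

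The channel's proteases were called in part. Among 12 proteases and protease inhibitors that act on ENaC, 1 was called in PBS against normal, where 2.74% of all genes were called, and it rose. St14, which encodes the membrane protease matriptase, an activator of prostasin, stood at 32.1, 32.2 and 30.5 CPM in normal and 47.5, 51.3 and 47.7 CPM in PBS. It stood at 49.1, 48.9 and 61.3 CPM in EV200, and 36.5, 40.2 and 39.4 CPM in EV400. The normal libraries were lowest, the EV400 libraries were above them and below all PBS and EV200 libraries, and PBS and EV200 overlapped. Of all genes, 13.8% were likewise lower in every EV400 than in every PBS library, and 5.57% lower in every EV400 than in every EV200 library. Every library lay above the normal ones for 20.3% of all genes in PBS, 11.9% in EV200 and 8.28% in EV400. St14 rose 1.55-fold in PBS (log2 0.63, SE 0.09, adjusted p = 0.0321 in edgeR) and 1.68-fold in EV200 (log2 0.75, SE 0.09, adjusted p = 0.00988), each against normal, and it was called in the joint test (adjusted p = 0.0315). EV400 differed from normal by 0.29 (SE 0.09, interval 0.09 to 0.49, adjusted p = 0.656), from PBS by -0.34 (SE 0.09, interval -0.53 to -0.14, adjusted p = 0.133) and from EV200 by -0.46 (interval -0.66 to -0.26, adjusted p = 0.769), with none of these called by edgeR. DESeq2 called St14 lower in EV400 than in PBS (adjusted p = 0.0257) and than in EV200 (adjusted p = 0.011). Limma-voom called both as well (adjusted p = 0.00636 and 0.0209), and the difference of EV400 from normal (adjusted p = 0.0289). The PBS call was lost without any 1 of the 3 normal libraries (adjusted p 0.115 to 0.142), without PBS 2 (0.0819) and without EV400 2 (0.0554), while the log2 fold change stayed between 0.60 and 0.65. The EV200 call was lost without any 1 of the normal libraries (adjusted p 0.0772 to 0.104).

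Prss8 encodes prostasin, the protease that cleaves the γ subunit and that matriptase activates. It was at 374, 399 and 354 CPM in normal, 280, 183 and 278 CPM in PBS, 365, 358 and 293 CPM in EV200, and 368, 371 and 420 CPM in EV400. The PBS libraries were below all 9 others, and normal and EV400 overlapped. Of all genes, 20% were below normal in every PBS library, 5.53% above PBS in every EV200 library and 12.2% above PBS in every EV400 library. The log2 fold change was -0.61 for PBS against normal (SE 0.15, interval -0.94 to -0.28, adjusted p = 0.0523 in edgeR), 0.46 for EV200 against PBS (SE 0.15, interval 0.13 to 0.79, adjusted p = 0.657) and 0.65 for EV400 against PBS (SE 0.15, interval 0.32 to 0.98, adjusted p = 0.118). None was called by edgeR. DESeq2 called Prss8 in PBS against normal (adjusted p = 0.00282) and EV400 against PBS (adjusted p = 0.00257), and limma-voom called it in these (adjusted p = 0.0013 and 0.00649) and in EV200 against PBS (adjusted p = 0.0224). The protease Plat, tissue plasminogen activator, differed from normal by 0.87 in PBS (SE 0.26, adjusted p = 0.0659 in edgeR). The median of the 12 genes was -0.04, against 0 for all genes.

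**Figure D4:**
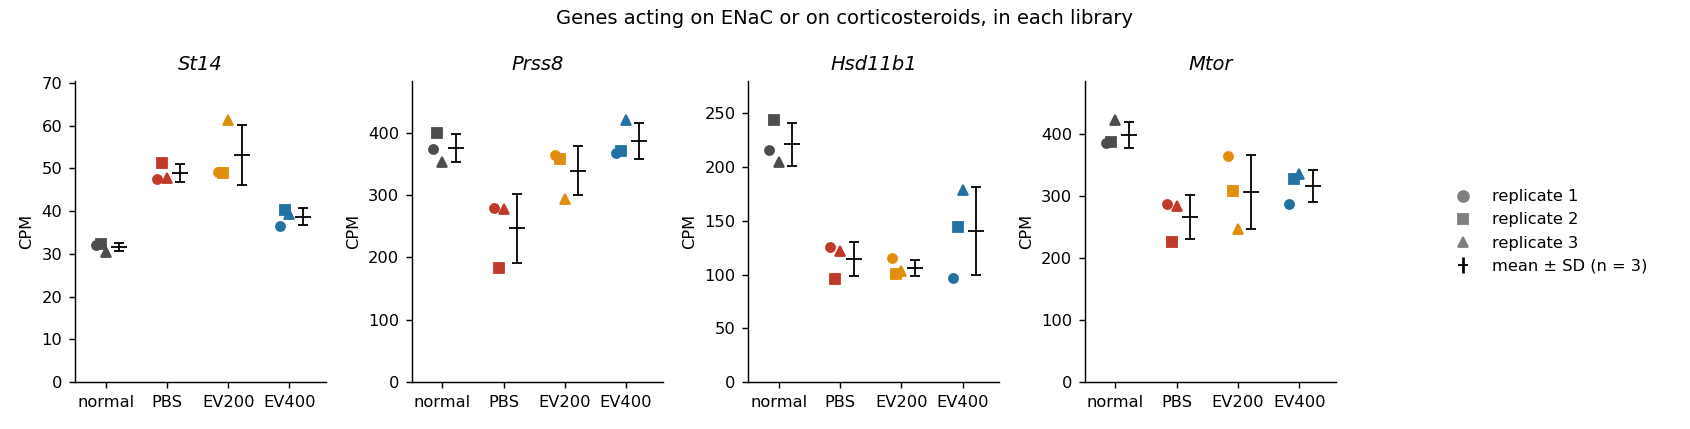
CPM of St14, Prss8, Hsd11b1 and Mtor is plotted for each library by group, with the mean ± SD (n = 3) as a black bar. St14 is lowest in normal, Prss8 is lower in every PBS library than in every normal one, and Hsd11b1 and Mtor are highest in normal.

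Of the enzymes that interconvert corticosterone, the activating one was called. Hsd11b1, whose product regenerates corticosterone from its inactive form, opposite to HSD11B2, was at 216, 244 and 205 CPM in normal and 125, 96.2 and 122 CPM in PBS. It was at 115, 100.2 and 103 CPM in EV200, and 97.2, 144 and 179 CPM in EV400. All 9 libraries of the cisplatin groups lay below all 3 normal libraries, as for 20% of all genes in PBS, 12.9% in EV200 and 10.6% in EV400. Hsd11b1 fell to 0.517-fold of normal in PBS (log2 -0.95, SE 0.18, adjusted p = 0.0404 in edgeR). It differed from normal by -1.06 in EV200 (SE 0.18, interval -1.46 to -0.66, adjusted p = 0.066) and by -0.66 in EV400 (SE 0.18, interval -1.06 to -0.26, adjusted p = 0.655), neither called by edgeR. DESeq2 called the EV200 difference (adjusted p = 1.06e-05), and limma-voom called both (adjusted p = 0.00202 for EV200 and 0.00541 for EV400). The EV200 difference was also called by edgeR with a filter of 1 CPM (adjusted p = 0.0495), with only the 2 groups fitted (0.0301) and on library totals (0.0469). The PBS call was lost with each of 7 libraries left out in turn (the 3 normal ones, PBS 2, PBS 3, EV200 2 and EV400 2; adjusted p up to 0.158). The summed proximal tubule markers were lower in PBS than in normal as well, and their part in this was not tested. H6pd, which supplies the cofactor of this enzyme, differed by -0.32 in PBS against normal (SE 0.13, adjusted p = 0.129). Of the 7 genes of this list, which also holds the acid-sensing channels of the ENaC family, 4 passed the filter and Hsd11b1 was the 1 called by edgeR. The acid-sensing channel gene Asic2 stayed at or under 1.02 CPM in every library.

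Among 18 intracellular regulators of ENaC and of aldosterone signalling, 1 was called in PBS against normal and it fell. Mtor, the kinase of the complex that phosphorylates SGK1, was at 386, 388 and 423 CPM in normal and 288, 226 and 285 CPM in PBS. The 2 groups did not overlap, as for the 20% of all genes that were below normal in every PBS library. Mtor was at 247 to 366 CPM in EV200 and 288 to 336 CPM in EV400. These libraries also lay below all normal ones, as for 12.9% of all genes in EV200 and 10.6% in EV400. The log2 fold change of Mtor for PBS against normal was -0.58 (SE 0.14, interval -0.89 to -0.28, adjusted p = 0.0488 in edgeR), close to the threshold. The call was lost with DESeq2 size factors (adjusted p = 0.0502), without a filter (0.0576) and without scaling factors (0.0532). The call was lost with each of 8 libraries left out in turn (the 3 normal ones, PBS 2, PBS 3, EV200 2, EV400 1 and EV400 2; adjusted p up to 0.162). Usp2, which encodes an aldosterone-inducible deubiquitinase acting on ENaC in mice, was at 107, 116 and 123 CPM in normal and 69.3, 71.4 and 91.5 CPM in PBS. Its log2 fold changes were -0.58 for PBS against normal (SE 0.15, adjusted p = 0.0584), 0.51 for EV200 against PBS (adjusted p = 0.657) and 0.67 for EV400 against PBS (adjusted p = 0.118), none called by edgeR. DESeq2 called Usp2 in PBS against normal (adjusted p = 0.0076) and EV400 against PBS (adjusted p = 0.00346), and limma-voom called it in all 3 comparisons (adjusted p = 0.0106, 0.0364 for EV200 and 0.0426 for EV400). Stk39, the kinase SPAK that acts on distal sodium-chloride cotransport, differed by 0.44 in PBS against normal (SE 0.11, adjusted p = 0.0501). The median of the 18 genes was -0.03, against 0 for all genes, and 5 of the 18 had an unadjusted p under 0.05 where 29.8% of all genes did.

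Among the ion transport genes of the distal nephron, 11 of 12 passed the filter and 1 was called in PBS against normal. Kcnj1, the potassium channel ROMK, through which potassium leaves principal cells and thick limb cells, stood at 127, 125 and 139 CPM in normal and 202, 172 and 166 CPM in PBS. It stood at 174, 179 and 170 CPM in EV200, and 152, 157 and 161 CPM in EV400. Every library of the cisplatin groups lay above the normal ones, as for 20.3% of all genes in PBS, 11.9% in EV200 and 8.28% in EV400. Kcnj1 rose in PBS by a log2 fold change of 0.47 (SE 0.08, interval 0.28 to 0.65, adjusted p = 0.0379 in edgeR). The call was lost with each of 7 libraries left out in turn (the 3 normal ones, PBS 2, EV200 2, EV400 1 and EV400 2; adjusted p up to 0.158). The 6 thick ascending limb markers, of which Kcnj1 is 1, summed to 2890 to 3300 CPM in normal, 3770 to 4370 in PBS, 4080 to 4530 in EV200 and 3490 to 3940 in EV400, and their part was not tested. The sodium pump subunit Atp1b1 differed by -0.17 (SE 0.10, adjusted p = 0.254) and the sodium-bicarbonate transporter Slc4a8 by 0.56 (SE 0.16, adjusted p = 0.0638) in PBS against normal. The list median was 0.04, against 0 for all genes.

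Of 12 steroid receptor and target genes, 2 were called in PBS against normal, both higher, and both are also known as genes of tissue injury. Lcn2, the iron-carrier protein lipocalin 2 and a tubular injury marker, was at 0.339, 0.493 and 0.789 CPM in normal and 7.46, 22.6 and 7.02 CPM in PBS (log2 fold change 4.52, SE 1.03, adjusted p = 0.0471 in edgeR). Serpina3n, an acute-phase protease inhibitor, was at 0, 0.0616 and 0 CPM in normal and 0.849, 4.98 and 3.92 CPM in PBS (adjusted p = 0.0471). Normal held too few Serpina3n counts for a fold change to be read. Lcn2 ran from 2.77 to 24.2 CPM in EV200 and from 0.603 to 4.95 CPM in EV400. Serpina3n ran from 0.213 to 2.49 CPM in EV200 and from 0 to 0.912 CPM in EV400. In both genes EV200 3 was the highest EV200 library and EV400 3 the lowest EV400 library. Both calls were lost with each of 8 libraries left out in turn (the 3 normal ones, PBS 2, PBS 3, EV200 2, EV400 1 and EV400 2; adjusted p up to 0.161 and 0.158). Rasd1, a small GTPase induced by glucocorticoids, differed by 1.07 (SE 0.28, adjusted p = 0.0565) and was at most 3.49 CPM in every library. The list median was 0.15, against 0 for all genes.

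Of 19 genes of the kallikrein-kinin system, 16 passed the filter and 0 were called by edgeR in PBS against normal, while DESeq2 called 1 and limma-voom 2. An unadjusted edgeR p under 0.05 was found for 2 of the 16, and the list median was -0.08 against 0 for all genes. Ace, the kinin-degrading and angiotensin-forming enzyme, was at 396, 482 and 421 CPM in normal and 343, 280 and 340 CPM in PBS, without overlap (log2 fold change -0.43, SE 0.14, adjusted p = 0.0816 in edgeR, 0.0289 in DESeq2 and 0.0116 in limma-voom). Every PBS library was likewise below every normal one for 20% of all genes. The kinin precursors Kng1 and Kng2 differed by 0.45 (SE 0.17, adjusted p = 0.115) and 0.11 (SE 0.07, adjusted p = 0.299) in edgeR, and limma-voom called Kng1 (adjusted p = 0.00575). Over the 6 lists, 73 genes were tested. In PBS against normal, edgeR called 6 of them, DESeq2 18 and limma-voom 27, where DESeq2 called 15.2% and limma-voom 32.9% of all genes. Plat, Stk39, Slc4a8, Asic2 and Rasd1, not called by edgeR, were called there by DESeq2 (adjusted p from 0.00368 to 0.0169) and by limma-voom (from 0.00204 to 0.0198), while DESeq2 gave no adjusted p for Lcn2. In EV200 against PBS, edgeR and DESeq2 called 0 of the 73 and limma-voom 7, and 7 had an unadjusted edgeR p under 0.05. Of all genes, 6.9% had such a p in that comparison, DESeq2 called 0.256% and limma-voom 9.28%. In EV400 against PBS, edgeR called 0, DESeq2 6 and limma-voom 10, and 19 had an unadjusted edgeR p under 0.05. There 23.5% of all genes had such a p, DESeq2 called 5.36% and limma-voom 15.3%. The lists' medians were -0.05 to 0.14 for EV200 and -0.31 to 0.28 for EV400, against 0 and -0.02 for all genes.

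**Figure D5:**
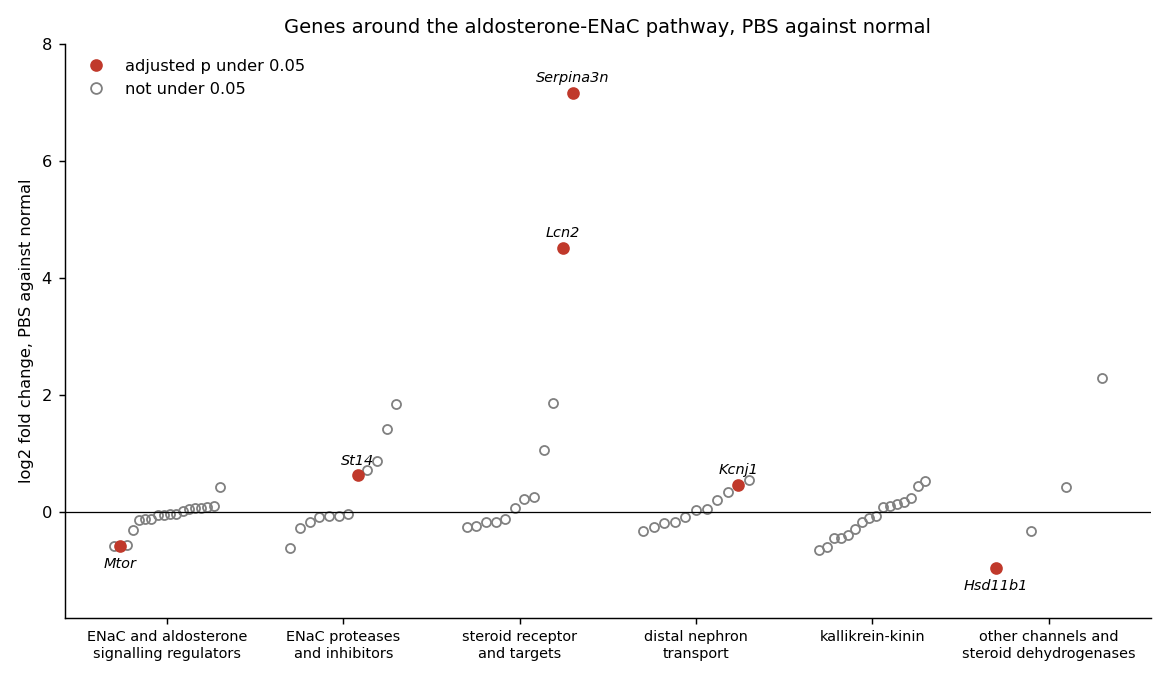
Each circle is a gene of 1 of the 6 lists, placed by its log2 fold change for PBS against normal on the vertical axis, and filled red where the adjusted p was under 0.05. Of the red genes, St14, Kcnj1, Lcn2 and Serpina3n lie above 0 and Mtor and Hsd11b1 below it, while most circles lie close to 0, and the height of Serpina3n is set by its near absence in normal.

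Clock genes differed between the groups and are given because Sgk1, the ENaC subunits and Usp2 are known to vary over the day in mice and the hour of collection is not given in the sources used here. Of 15 clock genes, 7 were called in PBS against normal, 6 lower and 1 higher, where 2.74% of all genes were called. In EV400 against PBS 5 were called, 3 higher and 2 lower, where 0.0801% of all genes were called. The clock score (standardized log2 CPM of output genes minus that of Arntl, Npas2 and Clock) was 0.3 to 0.67 in normal, -3.98 to -1.16 in PBS, -0.06 to 0.64 in EV200 and 1.21 to 2.63 in EV400. With this score as a covariate in edgeR, 0 of all genes were called for PBS against normal and 631 had an unadjusted p under 0.05. The calls of St14, Mtor, Hsd11b1, Kcnj1, Lcn2 and Serpina3n in that comparison were thus lost (adjusted p = 0.912 for each). Under this covariate the log2 fold change was -0.60 (SE 0.37) in place of -0.95 for Hsd11b1, 0.28 (SE 0.16) in place of 0.47 for Kcnj1, 0.66 (SE 0.19) in place of 0.63 for St14, and 0.22 (SE 0.30) in place of 0.27 for Scnn1g. The scores of PBS and EV400 overlapped with those of no other group, so the score and these groups cannot be told apart.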

How the data were processed

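Kidney RNA of 12 libraries was sequenced as paired reads from a strand-marking poly(A) kit, per the labels' protocols. The submitters' processing notes name HISAT2 2.1.0, StringTie 2.1.3b, FastQC 0.11.7 and Trimmomatic 0.38 with no roles, and mouse builds GRCm38 and mm10. Which program counted the reads, and with which strand setting, is not given in the sources used here. Read counts of 45777 genes were used as the authors deposited them, and the authors' TPM values for levels between genes and for ratios. The authors' FPKM values were not used.

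Counts were tested in R 4.3.3 with edgeR 4.0.16 (quasi-likelihood, TMM factors, default filter by group) in 1 fit of all 12 libraries with 8 residual degrees of freedom. Adjustment was by Benjamini-Hochberg over 18730 genes. The standard error is the log2 fold change over the square root of F, and 95% intervals use the fit's degrees of freedom. They cover the spread between libraries. CPM is the count scaled to the library's size with TMM factors. Ratios were compared with two-sided exact permutation tests, and correlations with 100000 permutations. Replicates of a group differed by more than sampling noise. The fit was tested on simulated data.

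The 7 genes, the lists and the tests were chosen with earlier results of these data known. Named genes were the 7, the list genes called in any comparison, up to 3 per list with the smallest joint-test p, and the 3 genes most correlated with each of the 7, of which 1 is not reported here. Asic2, Rasd1 and the other list genes named follow this rule. Coordinates and windows are from RefSeq, and exon overlaps from GENCODE. Alternatives were DESeq2 1.42.0 and its size factors, limma-voom (limma 3.58.1) with quality weights, other filters, a replicate block, a fit of 2 groups, a clock score covariate and leaving out each library. Library totals without scaling factors, the omission of PBS 2, EV200 3 and EV400 3, and ratios of counts were chosen after seeing the data.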

Additional observations from a re-analysis of the deposited data

How the results depend on the processing

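Of the 7 genes, only Scnn1g was called under any alternative. Limma-voom with quality weights called 1 member in PBS against normal, 1 in EV400 against normal and 1 in the joint test. Of all genes it called 6164, 1481 and 6634 in these tests. The omission of PBS 2, EV200 3 and EV400 3, added after seeing the data, called 1 member in each of the same tests. Of all genes it called 2608, 490 and 1425. The cause was not tested. Leaving out each single library called 0 members in all 7 tests. With the replicate number as a block, 0 members and 0 of all genes were called in PBS against normal, Scnn1g stood at 0.27 (adjusted p = 0.266) and St14 at 0.63 (adjusted p = 0.0786), and Mtor, Hsd11b1, Kcnj1, Lcn2 and Serpina3n also lost their calls. The replicate numbers do not pair the libraries: of 18 correlations of same-numbered deviations, from -0.39 to 0.34, 2 were over 0.1. Over all genes, PBS against normal gave 514 calls, and 299 without a filter, 819 with the filter of 1 CPM, 2855 with DESeq2, 6164 with limma-voom and 1449 with only the 2 groups fitted. Leaving out 1 library gave 0 to 2405 calls, with 0 without any 1 normal library and 1 without PBS 2. EV400 against PBS gave 15 calls, and 1004 with DESeq2 and 2868 with limma-voom, and EV200 against PBS gave 3, 48 and 1738. Of 924 member values under alternatives, 71 had the other sign, all of them uncalled, and the signs of such small differences are not to be read. With the clock score as a covariate, the log2 fold change was 0.02 for Scnn1a in EV400 against EV200, -0.09 for Scnn1b in PBS against normal, 0.06 for Scnn1g in EV400 against PBS, -0.08 for Hsd11b2 in PBS against normal, 0.03 for Hsd11b2 in EV400 against EV200, -0.05 for Sgk1 in PBS against normal, 0.25 for Sgk1 in EV200 against PBS, 0.24 for Sgk1 in EV400 against PBS, -0.01 for Klk1 in EV400 against normal, -0.08 for Usp2 in EV400 against PBS and 0.07 for Kcnj1 in EV400 against PBS. Under limma-voom it was 0.05 for Nr3c2 in EV200 against PBS, 0.07 for Nr3c2 in EV400 against PBS, -0.05 for Sgk1 in EV200 against normal, -0.07 for Sgk1 in EV400 against normal and -0.03 for Klk1 in EV200 against PBS. Without PBS 2, EV200 3 and EV400 3 it was 0.10 for Scnn1a in PBS against normal, 0.06 for Nr3c2 in EV400 against PBS, 0.00 for Hsd11b2 in EV200 against PBS, 0.01 for Hsd11b2 in EV400 against EV200, -0.04 for Sgk1 in EV400 against normal, -0.06 for Klk1 in EV400 against EV200, 0.05 for Klk1 in EV200 against normal and -0.01 for Klk1 in EV400 against normal. On library totals, which moved the median of all genes by 0.17 for PBS against normal and -0.17 for EV400 against PBS, it was 0.15 for Scnn1a in PBS against normal, -0.02 for Scnn1a in EV400 against PBS, -0.02 for Scnn1b in EV400 against EV200 and -0.06 for Hsd11b2 in EV400 against PBS. Without a filter it was 0.00 for Scnn1a in PBS against normal and 0.01 for Sgk1 in EV200 against PBS. With a filter of 1 CPM in 3 libraries it was 0.00 for Scnn1a in PBS against normal. With DESeq2 size factors it was 0.00 for Sgk1 in EV200 against PBS. Under DESeq2 it was 0.00 for Sgk1 in EV200 against PBS. With each library left out in turn, Scnn1a ranged from -0.16 to 0.11 in PBS against normal and -0.30 to 0.04 in EV400 against EV200. Scnn1b ranged from -0.09 to 0.19 in PBS against normal, -0.04 to 0.22 in EV200 against PBS and -0.03 to 0.13 in EV400 against EV200. Scnn1g ranged from -0.26 to 0.01 in EV200 against PBS, -0.17 to 0.10 in EV400 against PBS and -0.01 to 0.19 in EV400 against EV200. Nr3c2 ranged from -0.20 to 0.02 in EV200 against PBS, -0.05 to 0.05 in EV400 against PBS and -0.02 to 0.20 in EV400 against EV200. Hsd11b2 ranged from -0.09 to 0.13 in PBS against normal, -0.01 to 0.21 in EV200 against PBS, -0.03 to 0.19 in EV400 against PBS and -0.06 to 0.04 in EV400 against EV200. Sgk1 ranged from -0.18 to 0.18 in EV200 against PBS, -0.32 to 0.04 in EV400 against EV200 and -0.02 to 0.19 in EV400 against normal. Klk1 ranged from -0.13 to 0.29 in EV200 against PBS, -0.04 to 0.36 in EV400 against EV200, -0.34 to 0.05 in EV200 against normal and -0.08 to 0.08 in EV400 against normal.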
